A study of Sus scrofa with 11 samples.

Results

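The comparison set the livers of pigs given 40 Gy of hepatic irradiation against those given 20 or 30 Gy, all sampled at day 35. It used 9 of the 11 RNA sequencing libraries of the series: the 3 at 40 Gy on one side, and the 3 at 20 Gy pooled with the 3 at 30 Gy on the other, called low dose from here on. A library is named by dose and replicate, as in 40Gy-1. Both control libraries, labelled day 0 and without a dose, served as a reference level and entered no test. The labels give every library the genotype WT, the tissue liver and the cell type hepatocyte. No source used here gives age, strain or the animal behind each library, so the p-values measure the spread between these libraries, which may be technical. The title of the series names a veno-occlusive liver disease caused by radiation, with ferroptosis, an iron-dependent death of cells by lipid peroxidation.

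Values are FPKM, sequenced fragments scaled to the length of the gene and to the mapped fragments of the library, in the authors' deposited table of 12505 genes. They were analysed as log2(FPKM + 1), a scale on which low genes change by less than their ratio. The threshold for a call was an adjusted p under 0.05 in limma, with Benjamini-Hochberg adjustment over the 11526 genes tested. The depth of the libraries is unknown. A library is RNA from tissue, so that fewer cells of a type and less RNA per cell cannot be told apart. ALB, the defining marker of the labelled hepatocytes, read 7050.0 FPKM or more in every library, and summed markers of Kupffer cells, stellate cells and T cells also stood at 28.0 FPKM or more in each.

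The irradiated libraries were not alike in ways that the dose does not give. Over 4933 genes with at least 5 FPKM in all 9 libraries, the SD of the log2 ratio between 20Gy-3 and 30Gy-3 was 0.13, and that between 30Gy-1 and 30Gy-2 was 0.14. The other 34 pairs lay between 0.31 and 1.01. Both of these near-identical pairs were therefore counted as 1 sample each in every mean ± SD, which leaves n = 4 at low dose, and each test was repeated with the pairs averaged. The low-dose libraries formed 2 sets that cross the doses. The first held 20Gy-1, 20Gy-3 and 30Gy-3, the second 20Gy-2, 30Gy-1 and 30Gy-2, with SDs of 0.31 to 0.35 for the other pairs within a set and 0.55 to 0.64 between the sets. At 40 Gy, 40Gy-2 and 40Gy-3 were 0.35 apart, whereas 40Gy-1 stood at 0.86 and 0.89 from them and at 0.63 from its nearest low-dose library, 20Gy-2. The deposited FPKM also summed to 520839 in 40Gy-1, to between 643067 and 779138 in the low-dose libraries, and to 846576 and 949840 in 40Gy-2 and 40Gy-3. The part of these differences in the results was not tested. Many counts of called list members moved by over 1.5 times without a single library, mostly one at 40 Gy, and the counts without it are given for most of these lists.

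The liver makes most plasma proteins, cholesterol and, in the fed state, fatty acids. Genes of cholesterol synthesis and uptake are switched on by the transcription factor SREBP2 when sterols in the cell run low, and genes of fatty acid synthesis by SREBP1c and ChREBP under insulin and sugar. In inflammation, interleukin-6 acts through STAT3 on hepatocytes to raise the acute phase proteins, while albumin and other plasma proteins are made less. Metallothioneins bind zinc and copper and are induced by metals, glucocorticoids and inflammation.

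Against low dose, genes of lipid synthesis and of several plasma proteins fell at 40 Gy, and some metallothionein, acute phase and neutrophil marker genes rose. In some of these genes, such as FASN and SCD, the low-dose libraries lay further from the controls than those at 40 Gy. Of the 11526 genes tested, 2595 were called (22.5%): 1406 rose (12.2%) and 1189 fell (10.3%). With both near-identical pairs averaged, 1116 were called (9.68%), 512 of which rose (4.44%) and 604 of which fell (5.24%). Of these, 1115 were also among the 2595, in the same direction. Counts of list members below are to be read beside these shares of all genes. Without 40Gy-1 the count was 4767 (41.4%), without 40Gy-2 it was 1002 and without 40Gy-3 it was 1303. A shift of all libraries to a common median changed the split from 1406 against 1189 to 960 against 1478. The 3 libraries at 40 Gy did not overlap the 6 low-dose libraries in 2758 genes (23.9%). In each of the 28 alternatives, 249 genes were called in the same direction. Beside each difference below stand its adjusted p, the adjusted p with both pairs averaged, and the range of the adjusted p over all settings tried. For a called gene with no range, the call held in each of them.

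**Figure D1:**
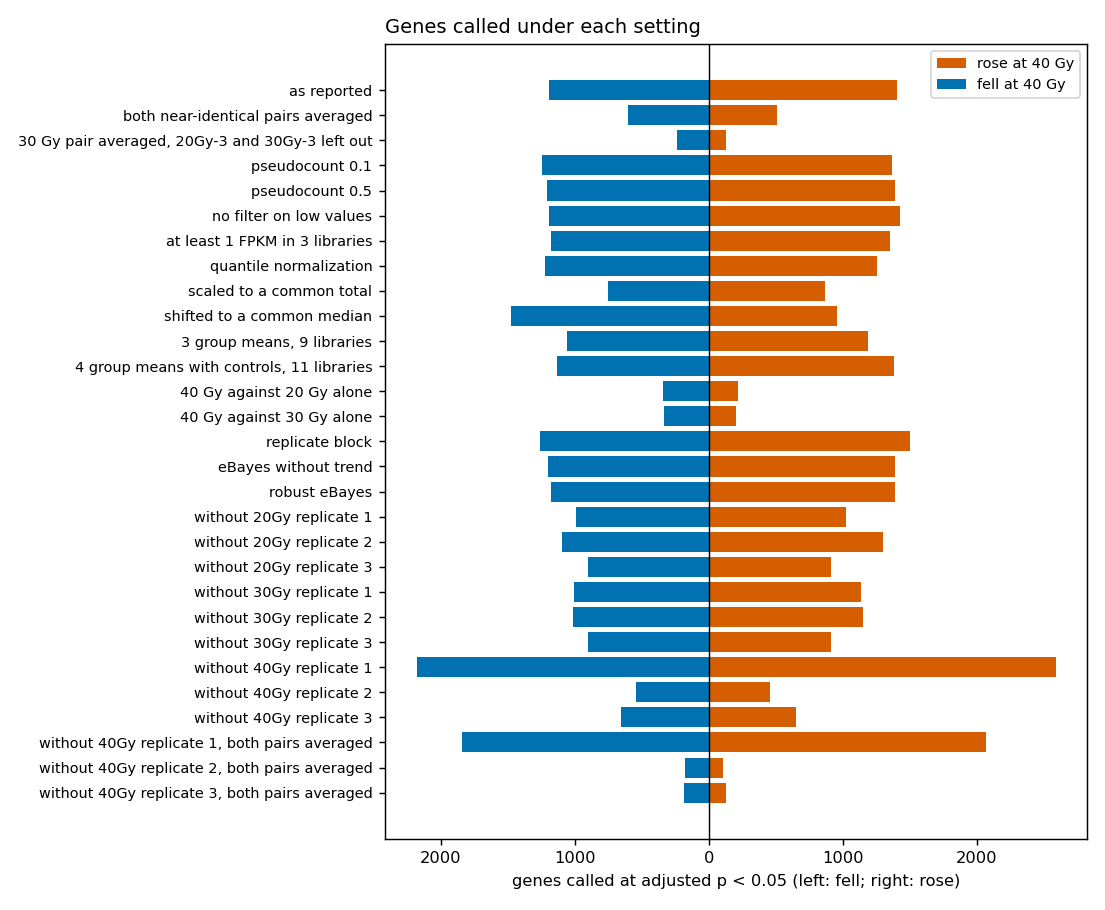
Genes called at adjusted p under 0.05 as reported and under each of the 28 alternatives. Bars to the right count genes that rose at 40 Gy and bars to the left those that fell, from 1406 and 1189 as reported to 105 and 176 with the pairs averaged and without 40Gy-2.

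In 1390 genes with a symbol, the call came with no overlap between the groups and a mean of 5 FPKM or more on the higher side, 770 of them higher and 620 lower at 40 Gy. The 15 largest differences in each direction are named below, and 29 of these 30 genes were also called with the pairs averaged. In 10 of the 15 that rose, all 3 libraries at 40 Gy also lay above both controls. In 6 of the 15 that fell, all 3 lay below both controls. The 30 genes were chosen for their difference at 40 Gy, and the same counts over all genes were not made. These counts against the controls are therefore no result about the named genes. The gene models of SULT1A3, FSTL3, ITIH4, ASPG, CBR2, ANGPTL8, DVL2 and IGFALS overlap other protein-coding models in the RefSeq table of Sscrofa11.1, and whether counting used the strand is not stated, so reads could belong to either.

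**Figure D2:**
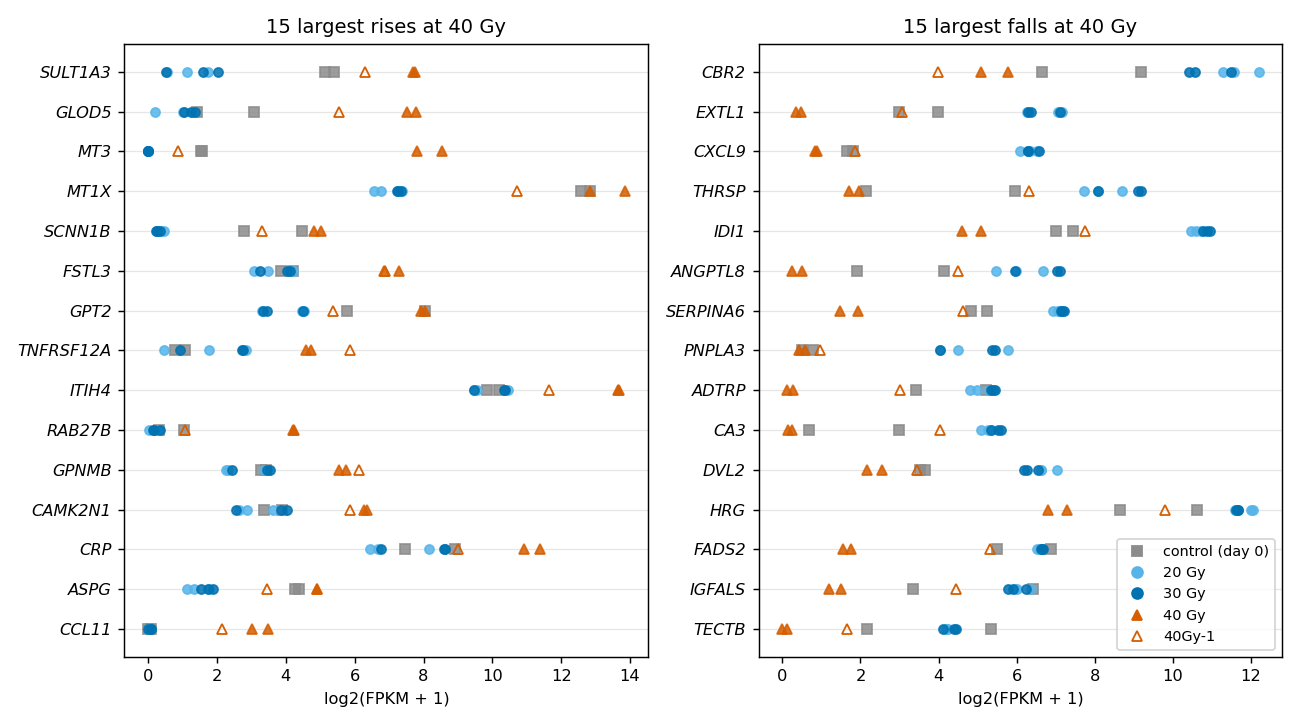
The 15 genes with the largest rise (left) and the 15 with the largest fall (right) at 40 Gy, as log2(FPKM + 1) in each library. Squares are controls, circles the low-dose libraries and triangles the libraries at 40 Gy, with 40Gy-1 drawn open. Circles and triangles do not overlap, which was a condition for naming a gene.

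The largest rise was that of SULT1A3 (Sscrofa11.1, chromosome 3, 18351205 to 18354653), a sulfotransferase that conjugates catecholamines and phenols, whose gene overlaps BOLA2B. It stood at 0.424 to 3.06 FPKM at low dose (median 1.60) and at 78, 206 and 214 FPKM in the libraries at 40 Gy, given here and below in the order 1, 2, 3. All 3 libraries at 40 Gy lay above the controls, at 34 and 41.3 FPKM, and far above every low-dose library. The log2 difference was 5.99 (SE 0.42, adjusted p = 3.65e-05 in limma, 0.00108 with the pairs averaged, 7.1e-06 to 0.00666 over all settings). GLOD5, a member of the glyoxalase domain family, read 0.140 to 1.55 FPKM at low dose and 45.6, 182 and 221 FPKM at 40 Gy. SCNN1B, the beta subunit of the epithelial sodium channel, read 0.172 to 0.365 FPKM at low dose, 8.97, 31.6 and 27.4 FPKM at 40 Gy and 5.92 and 21 FPKM in the controls. The 40 Gy libraries thus stood above the low-dose libraries in both genes, and 40Gy-1 was the lowest of the 3. Log2 differences came to 5.92 (SE 0.46, adjusted p = 5.26e-05 in limma) and 4.08 (SE 0.31, adjusted p = 5.26e-05), or 0.00126 and 0.00141 with the pairs averaged. SCNN1B read under 1 FPKM in every low-dose library, so it passed the filter only through the libraries at 40 Gy and could not fall.

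Metallothionein genes were listed far higher at 40 Gy. MT1X had 93.2 to 165 FPKM at low dose (median 149.7), 1679, 7340.3 and 14684 FPKM at 40 Gy and 7269 and 6127 FPKM in the controls. The low-dose libraries were therefore the ones that stood apart: 40Gy-2 and 40Gy-3 lay above both controls, and 40Gy-1 lay below both. The mean was 7901 ± 6520.3 (SD, n = 3) FPKM at 40 Gy against 128 ± 33 (SD, n = 4) at low dose, a log2 difference of 5.38 (SE 0.55, adjusted p = 0.000235 in limma, 0.00366 with the pairs averaged, 1.68e-06 to 0.0248 over all settings). MT3 was listed at 0 in all 6 low-dose libraries, at 0.834, 225 and 368 FPKM at 40 Gy and at 1.98 and 1.88 FPKM in the controls. Its call (adjusted p = 0.0149 in limma) was lost with the pairs averaged (0.0608), without 40Gy-2 (0.0833) and without 40Gy-3 (0.0684), in a range of 4.06e-08 to 0.216. Reads may be shared between near-identical metallothionein genes, so the split between MT1X and MT3 is uncertain.

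Of the 7 tested genes for metallothioneins and metal sensing, 4 rose (57.1%, beside 12.2% of all genes) and none fell. The median log2 difference was 1.22 against 0.07 over all genes. With the pairs averaged 2 rose. At an unadjusted p under 0.05 in limma, none of the 7 fell either. MT3, at 0 in every low-dose library, passed the filter only through the libraries at 40 Gy and could not fall. Without 40Gy-2 or without 40Gy-3, 2 rose, and without 40Gy-1, 5 rose and 1 fell. SLC30A1, the zinc exporter of the plasma membrane, rose from 6.57 ± 0.528 (SD, n = 4) FPKM at low dose to 12.6, 22.7 and 24.3 FPKM at 40 Gy, without overlap (log2 difference 1.40, SE 0.19, adjusted p = 0.00119, 0.012 with the pairs averaged, 1.44e-05 to 0.0614 over all settings). SLC39A14, an importer of zinc and iron, had 54.3 to 92.1 FPKM at low dose and 101, 224 and 209 FPKM at 40 Gy. Its adjusted p of 0.0188 became 0.0627 with the pairs averaged, 0.0983 without 40Gy-2 and 0.0835 without 40Gy-3, in a range of 0.00158 to 0.223. MTF1, the zinc sensor that drives metallothionein genes, read 1.0 to 1.26 FPKM at low dose and 0.917, 2.31 and 1.38 FPKM at 40 Gy, with an adjusted p of 0.388, or 0.0491 without 40Gy-1.

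Genes of lipid synthesis fell, and cholesterol synthesis had the largest share of falls among the 42 gene lists. Of 23 tested genes of cholesterol synthesis and uptake, 18 fell and none rose, none even at an unadjusted p under 0.05 in limma. The count that fell was 13 with the pairs averaged, 9 fell without 40Gy-2 and without 40Gy-3 12 fell, whereas 21 fell without 40Gy-1. The share that fell was 78.3%, beside 10.3% of all genes, and the median log2 difference was -1.90. Of 19 tested genes of fatty acid synthesis, 13 fell and none rose, none even at an unadjusted p under 0.05, and 9 fell with the pairs averaged. The share of these 19 that fell was 68.4%, and their median log2 difference was -1.30. Summed over the list, the sterol genes came to 4953 to 5361 FPKM at low dose, 1869, 816 and 764 FPKM at 40 Gy, and 2111 and 1329 FPKM in the controls. Those of fatty acid synthesis came to 2101 to 2633 FPKM at low dose, 822, 615 and 454 FPKM at 40 Gy, and 925 and 676 FPKM in the controls.

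IDI1, the isomerase that interconverts the building blocks of isoprenoids, had 1408 to 1974 FPKM at low dose (median 1706). It read 213, 23.4 and 32.8 FPKM at 40 Gy and 173 and 127 FPKM in the controls. All 3 libraries at 40 Gy lay far below every low-dose library, and 40Gy-1 lay above both controls while 40Gy-2 and 40Gy-3 lay below them. The log2 difference was -4.92 (SE 0.56, adjusted p = 0.00042 in limma, 0.00596 with the pairs averaged, 1.17e-07 to 0.03 over all settings). EBP, a sterol isomerase late in the pathway, went from 390.5 ± 106 (SD, n = 4) FPKM to 83, 24.3 and 27.9 FPKM, below both controls (188 and 136 FPKM) in all 3 libraries. SC5D, the desaturase that follows it, went from 136 ± 29.3 (SD, n = 4) FPKM to 42.5, 36.8 and 41.7 FPKM, and here the 3 libraries at 40 Gy were nearly equal. The log2 differences were -3.29 for EBP (SE 0.37, adjusted p = 0.000428, 0.00541 with the pairs averaged) and -1.75 for SC5D (SE 0.19, adjusted p = 0.000349, 0.00462 with the pairs averaged).

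In part of the pathway 40Gy-1 stayed near the low-dose level. FDFT1, the synthase that makes squalene and so commits carbon to sterols, read 119 to 173 FPKM at low dose (median 144), 111, 13.1 and 10.9 FPKM at 40 Gy and 112 and 37.4 FPKM in the controls, so that 40Gy-1 sat just below the low-dose range and the other two far below it. Its log2 difference of -2.44 (SE 0.60, adjusted p = 0.018 in limma) lost its call with the pairs averaged (0.0688), without 40Gy-2 (0.0968) and without 40Gy-3 (0.0835), in a range of 5.45e-06 to 0.234.

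**Figure D3:**
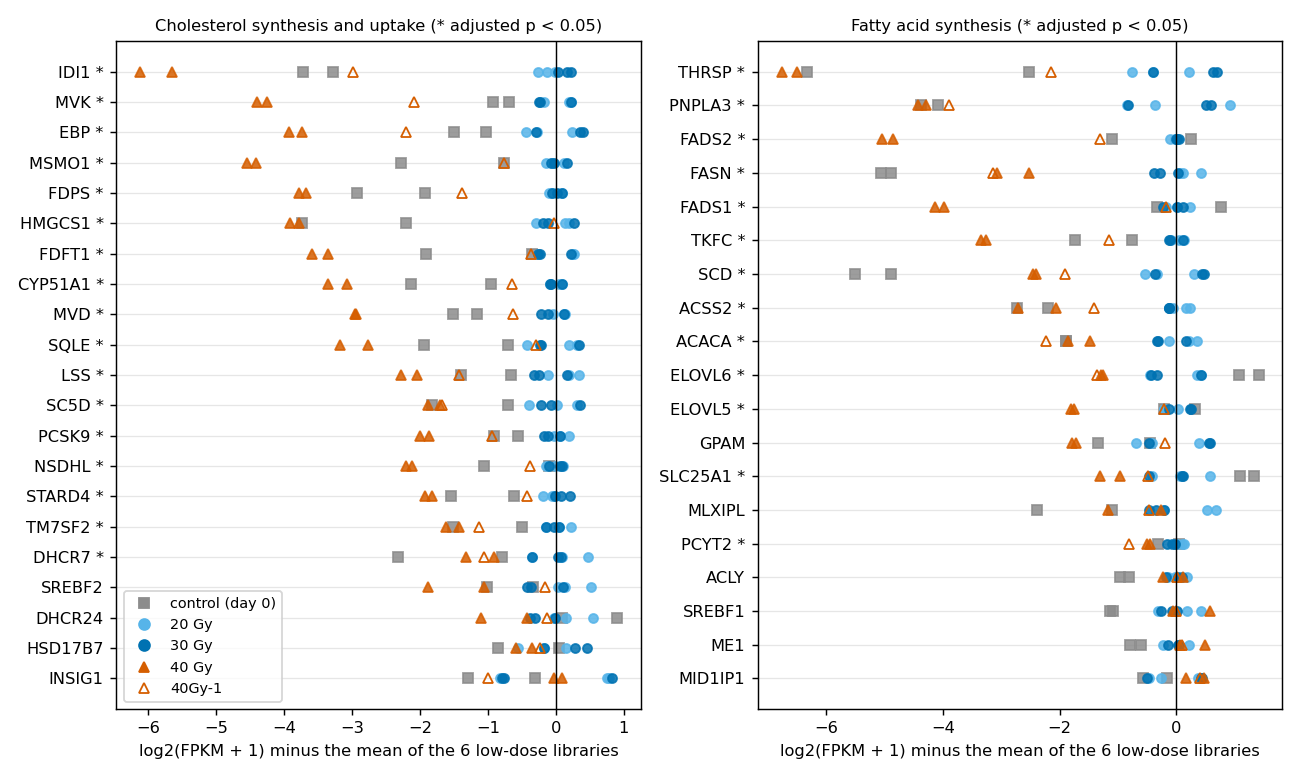
Of the tested genes, 21 of cholesterol synthesis and uptake (left) and 19 of fatty acid synthesis (right), as log2(FPKM + 1) in each library minus the mean of the 6 low-dose libraries. Stars mark adjusted p under 0.05, and in genes such as FDFT1 the open triangle of 40Gy-1 sits near the low-dose level while 40Gy-2 and 40Gy-3 lie far lower.

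Fatty acid synthesis held genes in which all 3 libraries at 40 Gy were low. FASN, the synthase that builds palmitate, had 529.9 to 924 FPKM at low dose (median 713), 77.5, 119 and 81 FPKM at 40 Gy and 19.7 and 22.2 FPKM in the controls. The 40 Gy libraries lay between the controls and the low-dose libraries, without overlap on either side. The mean was 92.4 ± 22.8 (SD, n = 3) FPKM at 40 Gy against 734 ± 153 (SD, n = 4) at low dose (log2 difference -2.91, SE 0.22, adjusted p = 5.06e-05 in limma, 0.00119 with the pairs averaged, 3.18e-05 to 0.0088 over all settings). SCD, the desaturase that makes oleate from stearate, showed the same order of the groups, with 150.3 to 302 FPKM at low dose, 57.5, 39 and 40.3 FPKM at 40 Gy and 6.33 and 3.77 FPKM in the controls. Its log2 difference was -2.25 (SE 0.27, adjusted p = 0.000596, 0.00541 with the pairs averaged). ACACA, the acetyl-CoA carboxylase that commits carbon to fatty acids, fell from 27.3 ± 5.89 (SD, n = 4) FPKM to 6.71 ± 2.0 (SD, n = 3), near its 6.38 and 6.35 FPKM in the controls (log2 difference -1.85, SE 0.21, adjusted p = 0.000476, 0.00494 with the pairs averaged).

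PNPLA3 (chromosome 5, 5075608 to 5092599), a lipase of the lipid droplet and a target of both lipogenic factors, read 15.3 to 54 FPKM at low dose and 0.943, 0.490 and 0.353 FPKM at 40 Gy, below 1 FPKM as in the controls (0.724 and 0.408 FPKM). Its log2 difference was -4.21 (SE 0.41, adjusted p = 0.000175 in limma, 0.00155 with the pairs averaged, 8e-05 to 0.0114 over all settings). THRSP, a nuclear protein of lipogenic tissue, read 210.0 to 577 FPKM at low dose and 79.3, 2.27 and 2.93 FPKM at 40 Gy, so that 40Gy-1 was low and the other two close to 0. FADS2, which desaturates polyunsaturated fatty acids, read 90.4 to 101 FPKM at low dose and 38.7, 1.95 and 2.38 FPKM at 40 Gy, in the same order. Log2 differences came to -5.14 for THRSP (SE 0.88, adjusted p = 0.00367, 0.0252 with the pairs averaged, 5.37e-06 to 0.104 over all settings) and -3.74 for FADS2 (SE 0.68, adjusted p = 0.00487, 0.03 with the pairs averaged, 4.76e-08 to 0.122 over all settings). The transcription factors themselves did not pass the test: SREBF1, which encodes SREBP1, read 44.2 to 73.9 FPKM at low dose and 54.8, 82.9 and 52.5 FPKM at 40 Gy (adjusted p = 0.569). MLXIPL, which encodes ChREBP, read 123 to 274 FPKM and 123, 141 and 75.1 FPKM (adjusted p = 0.166). SREBF2, which encodes SREBP2, was not called as reported either. It was called in limma with a shift to a common median (adjusted p = 0.0386) and without 40Gy-1 (0.00375, or 0.0106 with the pairs averaged). ANGPTL8, an insulin-responsive inhibitor of lipoprotein lipase whose gene overlaps DOCK6, fell from 43.7 to 138 FPKM to 21.4, 0.195 and 0.409 FPKM (log2 difference -4.63, SE 0.83, adjusted p = 0.00458, 0.0279 with the pairs averaged, 1.53e-05 to 0.117 over all settings).

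Genes of fat burning mainly fell, and those of fat storage moved both ways. Of 23 tested genes of fatty acid oxidation and ketone synthesis, 9 fell and 2 rose. These shares were 39.1% and 8.70%, beside 10.3% and 12.2% of all genes. The counts were 6 and 1 with the pairs averaged, and the median log2 difference was -0.36. Without 40Gy-1, 4 rose and 10 fell, and without 40Gy-2, 2 rose and 6 fell. Without 20Gy-1, 20Gy-3, 30Gy-3 or 40Gy-3, and scaled to a common total, 1 rose and 7 or 8 fell. ACADL, the long-chain acyl-CoA dehydrogenase, fell from 70.4 ± 17.6 (SD, n = 4) FPKM to 23.1, 13.5 and 10.3 FPKM in the 3 libraries (log2 difference -2.15, SE 0.27, adjusted p = 0.000712 in limma, 0.0069 with the pairs averaged, 0.000116 to 0.0414 over all settings). ACADM, its medium-chain counterpart, fell from 159 ± 8.69 (SD, n = 4) to 85 ± 4.83 (SD, n = 3) FPKM (log2 difference -0.92, SE 0.13, adjusted p = 0.00123, 0.0178 with the pairs averaged, 0.000257 to 0.0927 over all settings).

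Of 23 tested genes of lipid droplets and lipoproteins, 3 rose and 4 fell, 3 and 3 with the pairs averaged, a share of rises near the 12.2% of all genes. Without 40Gy-2, and likewise without 40Gy-3, 2 fell, whereas without 40Gy-1, 4 rose and 7 fell. The 3 that rose were ABHD5, PLIN2 and APOA4, and in each all 3 libraries at 40 Gy stayed below both controls. APOA4, an apolipoprotein of triglyceride-rich particles, was furthest from them, at 8.54 to 18.5 FPKM at low dose, 35.2, 34.3 and 46.2 FPKM at 40 Gy and 2523 and 4266 FPKM in the controls (log2 difference 1.55, SE 0.26, adjusted p = 0.00331, 0.0135 with the pairs averaged, 0.00116 to 0.0651 over all settings). PLIN2, the coat protein of lipid droplets, read 1.13 to 3.66 FPKM at low dose, 16.9, 11.8 and 11.2 FPKM at 40 Gy and 21.3 and 66.6 FPKM in the controls. ABHD5, the coactivator of the lipase that opens the droplet, read 5.90 to 11.4 FPKM at low dose, 28.2, 56.8 and 65.3 FPKM at 40 Gy and 72.8 and 87.7 FPKM in the controls. Both stood between the low-dose libraries and the controls, without overlap, with log2 differences of 2.23 (SE 0.27, adjusted p = 0.00059 in limma, 0.00404 with the pairs averaged) and 2.38 (SE 0.28, adjusted p = 0.00055, 0.00541 with the pairs averaged). DGAT2, which makes the final bond of triglycerides, fell from 32.3 ± 7.28 (SD, n = 4) FPKM to 8.90, 1.02 and 0.953 FPKM (log2 difference -3.22, SE 0.46, adjusted p = 0.00151, 0.0126 with the pairs averaged, 3.62e-06 to 0.0589 over all settings).

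Part of the acute phase genes rose. Of 16 tested members, 5 rose (31.2%, beside 12.2% of all genes) and none fell, with a median log2 difference of 1.05. With the pairs averaged 4 rose, where 4.44% of all genes did. At an unadjusted p under 0.05 in limma, 8 were higher and 1 lower. Without 40Gy-2 or 40Gy-3, 2 rose, and without 40Gy-1, 11 rose and 1 fell. ITIH4 (chromosome 13, 34928455 to 34948250), a plasma protein known as a main acute phase protein of the pig, had 713 to 1393 FPKM at low dose (median 1026), 3219, 13251 and 12816 FPKM at 40 Gy and 1166 and 918 FPKM in the controls. Low-dose and control libraries shared one range, and all 3 libraries at 40 Gy lay above it. The log2 difference was 3.05 (SE 0.46, adjusted p = 0.00196, 0.0148 with the pairs averaged, 4.07e-05 to 0.0705 over all settings).

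CRP, the C-reactive protein, read 86.9 to 392 FPKM at low dose, 509.6, 1925 and 2666 FPKM at 40 Gy and 478 and 176 FPKM in the controls, with 40Gy-1 only just above the highest of the others. Its log2 difference of 2.88 (SE 0.66, adjusted p = 0.0139 in limma, 0.0401 with the pairs averaged) lost its call without 40Gy-2 (0.073) and without 40Gy-3 (0.0673), in a range of 0.00248 to 0.157. LBP, which hands bacterial lipopolysaccharide to its receptor, went from 47.9 to 179.8 FPKM to 279, 540.4 and 549 FPKM (adjusted p = 0.0167, 0.0419 with the pairs averaged, 0.0811 without 40Gy-2, 0.0703 without 40Gy-3, 0.0079 to 0.163 over all settings). STAT3, the transcription factor of the response, read 57.7 to 78.9 FPKM at low dose and 70.8, 262 and 239 FPKM at 40 Gy, so that only 40Gy-2 and 40Gy-3 stood apart. Its adjusted p of 0.0325 became 0.099 with the pairs averaged, 0.0607, 0.0644 and 0.0641 without 20Gy-1, 20Gy-3 and 30Gy-3, 0.159 without 40Gy-2 and 0.138 without 40Gy-3, in a range of 6.61e-05 to 0.315.

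The interferon-induced chemokine CXCL9 (chromosome 8, 71665541 to 71670236), which draws T cells through CXCR3, had the smallest p of the 30 named genes. It read 67.3 to 93.6 FPKM at low dose (median 78.5), 2.60, 0.780 and 0.845 FPKM at 40 Gy and 2.53 and 2.15 FPKM in the controls. The 40 Gy libraries lay near the controls, and the low-dose libraries stood alone. The mean was 1.41 ± 1.03 (SD, n = 3) FPKM at 40 Gy against 79 ± 10.1 (SD, n = 4) at low dose, a log2 difference of -5.16 (SE 0.23, adjusted p = 3.34e-06 in limma, 0.000318 with the pairs averaged, 1.07e-07 to 0.00373 over all settings). CCL16, a chemokine made by hepatocytes, gave another order, with 645 to 1193 FPKM at low dose, 1023 and 894 FPKM in the controls and 59.6, 57.7 and 109.9 FPKM at 40 Gy, where alone it was low (log2 difference -3.62, SE 0.27, adjusted p = 5.15e-05, 0.00126 with the pairs averaged).

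Of 17 tested chemokine and cytokine genes, 6 fell and 1 rose (35.3% and 5.88%, beside 10.3% and 12.2% of all genes). The median log2 difference was -0.80. With the pairs averaged 4 fell and none rose. Without 40Gy-2, 3 fell, and without 40Gy-3, 4 fell. No member of the list rose without 20Gy-3, 40Gy-2 or 40Gy-3, or scaled to a common total. CCL21, a chemokine of lymphatic vessels, went from 19.5 ± 2.10 (SD, n = 4) FPKM to 9.99 ± 3.52 (SD, n = 3) (adjusted p = 0.00968, 0.048 with the pairs averaged, 0.00121 to 0.157 over all settings). CCL11, the eosinophil chemokine eotaxin, was among the 15 largest rises although on no list: it read 0 to 0.0663 FPKM at low dose, 0 and 0.0493 FPKM in the controls and 3.46, 7.02 and 10.1 FPKM at 40 Gy. Its log2 difference was 2.82 (SE 0.23, adjusted p = 7.95e-05, 0.00196 with the pairs averaged, 7.55e-07 to 0.0137 over all settings). CCL11 read under 1 FPKM in every low-dose library, so it passed the filter only through the libraries at 40 Gy and could not fall.

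Of the wider interferon response, 2 of 30 tested genes rose and 2 fell (6.67% in each direction, below the 12.2% and 10.3% of all genes), 1 and 1 with the pairs averaged. Without 40Gy-1, 2 rose and 15 fell, and without any other single library 1 or 2 rose and 1 or 2 fell. Of 15 antigen presentation genes 2 fell (13.3%, beside 10.3% of all genes) and none rose. None was higher even at an unadjusted p under 0.05 in limma, and 1 fell with the pairs averaged. It was SLA-DQB1, a class II molecule of the pig, which went from 33 ± 5.55 (SD, n = 4) FPKM to 15.8, 7.41 and 6.29 FPKM (adjusted p = 0.00207, 0.014 with the pairs averaged, 5.4e-05 to 0.0717 over all settings). Without 40Gy-1, 10 antigen presentation genes fell, and without any other single library 1 did.

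Neutrophil marker genes were low in all libraries and higher at 40 Gy. Of the 14 on the list, 6 were tested and 4 rose (66.7%, beside 12.2% of all genes). The count was also 4 with the pairs averaged and without any 1 library. None fell, none even at an unadjusted p under 0.05 in limma, and 1 fell without 40Gy-1. Summed, the markers gave 2.40 to 3.79 FPKM at low dose, 14.1, 15.3 and 22.1 FPKM at 40 Gy, and 6.87 and 5.42 FPKM in the controls. S100A12, a calcium-binding protein of granulocytes, read 0 to 0.633 FPKM at low dose and 4.04, 7.10 and 11.4 FPKM at 40 Gy (log2 difference 2.71, SE 0.26, adjusted p = 0.000183, 0.00325 with the pairs averaged). CSF3R, the receptor for granulocyte colony-stimulating factor, read 0.0938 to 0.473 FPKM and 3.03, 2.67 and 2.04 FPKM (log2 difference 1.44, SE 0.15, adjusted p = 0.000233, 0.00324 with the pairs averaged). In both genes all 3 libraries at 40 Gy lay above both controls. Both read under 1 FPKM in every low-dose library, so they passed the filter only through the libraries at 40 Gy. The count of rises in this list is thus partly set by the filter.

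**Figure D4:**
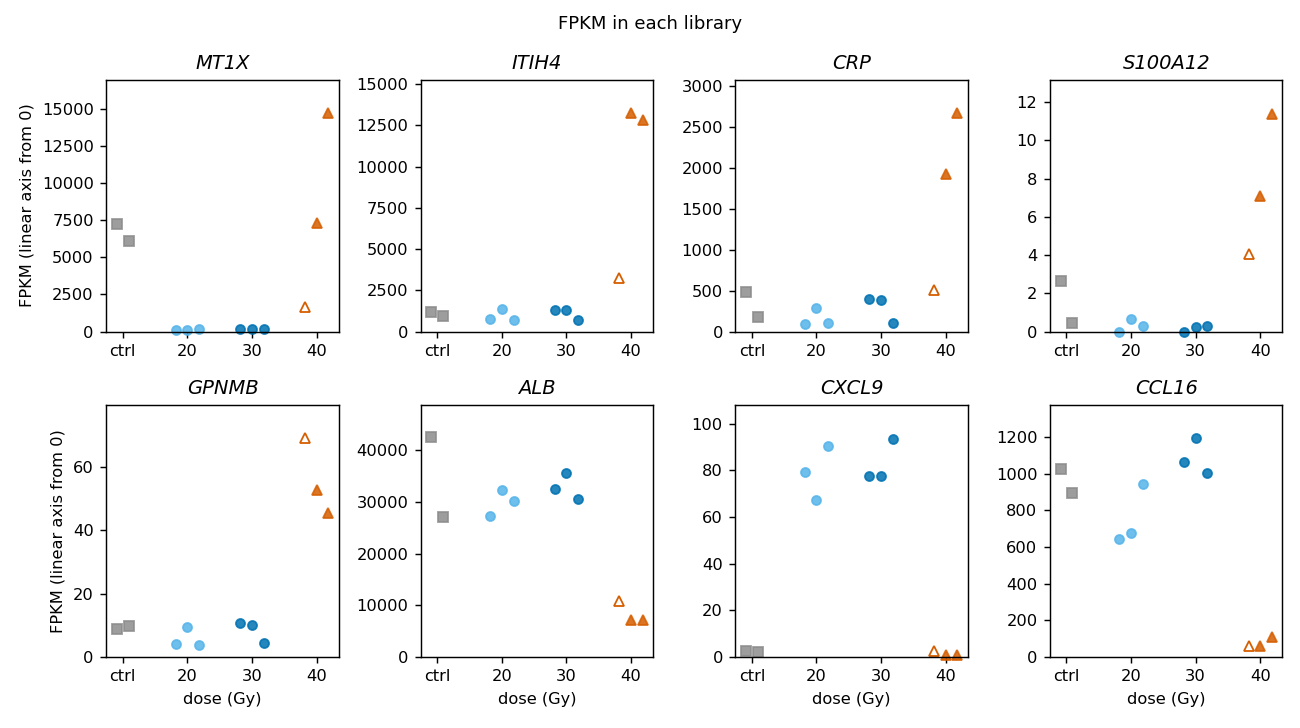
FPKM of 8 genes in each library on linear axes that start at 0, by dose, with 40Gy-1 drawn open. MT1X is low at 20 and 30 Gy only, CXCL9 high there only, and ITIH4, CRP, S100A12 and GPNMB are highest and ALB and CCL16 lowest at 40 Gy.

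Of 17 tested Kupffer cell and macrophage markers, 3 rose (17.6%, beside 12.2% of all genes) and none fell. At an unadjusted p under 0.05 in limma, 6 were higher and none lower. With the pairs averaged 1 rose, as did 1 without 40Gy-2 or scaled to a common total. Without 40Gy-1, 4 rose and 1 fell. With the pairs averaged it was GPNMB (chromosome 9, 92037428 to 92071501), a membrane glycoprotein of lipid-laden and scar-associated macrophages. It had 3.75 to 10.6 FPKM at low dose, 69.1, 52.6 and 45.6 FPKM at 40 Gy and 8.64 and 9.74 FPKM in the controls, and all 3 libraries at 40 Gy lay above all others. The log2 difference was 2.91 (SE 0.34, adjusted p = 0.000493, 0.00359 with the pairs averaged, 0.000389 to 0.0224 over all settings). CD68, a lysosomal protein of macrophages, read 9.32 to 27.1 FPKM at low dose and 79.7, 42 and 28.8 FPKM at 40 Gy. Its adjusted p of 0.0226 became 0.07 with the pairs averaged and 0.0755 without 40Gy-2, in a range of 0.00932 to 0.188. Summed, the macrophage markers gave 393 to 835 FPKM at low dose and 1379, 645 and 625 FPKM at 40 Gy, so that 40Gy-1 alone lay outside the low-dose range.

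T and NK cell markers were lower in 40Gy-2 and 40Gy-3. Of 15 tested T and NK cell markers, 7 fell (46.7%, beside 10.3% of all genes) and none rose. None was higher even at an unadjusted p under 0.05 in limma. The falls came to 2 with the pairs averaged, with the libraries scaled to a common total 1 fell, and without 40Gy-2 none did. Without 20Gy-1, 20Gy-3, 40Gy-3 or any library at 30 Gy, 2 to 4 fell, and without 40Gy-1, 10 fell. The summed markers were 58.4 to 64.0 FPKM at low dose and 78.8, 28.0 and 29.1 FPKM at 40 Gy, so that 40Gy-1 lay above and the other two below. CD3E, a chain of the T cell receptor complex, read 1.65 to 2.34 FPKM at low dose and 1.25, 0.402 and 0.579 FPKM at 40 Gy (adjusted p = 0.00992, 0.0409 with the pairs averaged, 0.0578 without 40Gy-2, 0.00047 to 0.165 over all settings). Of 7 tested B and plasma cell markers, 3 rose (42.9%, beside 12.2% of all genes) and none fell. None was lower even at an unadjusted p under 0.05 in limma. With the pairs averaged or scaled to a common total, 1 rose. JCHAIN, which links immunoglobulin chains in plasma cells, read 14.8 to 22.4 FPKM at low dose, 77.4, 60.2 and 44.9 FPKM at 40 Gy and 10.2 and 8.28 FPKM in the controls (log2 difference 1.59, SE 0.19, adjusted p = 0.000614, 0.00678 with the pairs averaged).

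Several genes of hepatocyte products fell. Of 12 hepatocyte markers 5 fell (41.7%, beside 10.3% of all genes) and none rose. At an unadjusted p under 0.05 in limma 1 was higher, and 3 fell with the pairs averaged. Without 40Gy-1, 3 rose and 5 fell, and 3 fell without 20Gy-2, 30Gy-1, 30Gy-2, 40Gy-2 or 40Gy-3. Of 21 tested genes of secreted plasma proteins 9 fell (42.9%) and none rose. At an unadjusted p under 0.05 in limma 2 were higher, and 7 fell with the pairs averaged. Without 40Gy-1, 1 rose and 12 fell. The median log2 difference of these 21 was -1.07. ALB, which encodes albumin, had 27264 to 35552 FPKM at low dose (median 31409), 10810.5, 7119 and 7050.0 FPKM at 40 Gy and 42547 and 27026 FPKM in the controls. All 3 libraries at 40 Gy lay below every other library, with a mean of 8326 ± 2152 (SD, n = 3) FPKM against 30983 ± 2897 (SD, n = 4) (log2 difference -1.94, SE 0.20, adjusted p = 0.000241, 0.00591 with the pairs averaged, 3.85e-06 to 0.0369 over all settings). The summed hepatocyte markers were 47416 to 61859 FPKM at low dose and 28338, 31040 and 32575 FPKM at 40 Gy, a sum that includes ALB. HNF4A, the transcription factor of hepatocyte identity, read 65.3 to 108 FPKM at low dose and 73.4, 155 and 144 FPKM at 40 Gy, and did not pass the test (adjusted p = 0.253), except without 40Gy-1 (0.0294), in a range of 0.0294 to 0.731.

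SERPINA6, which encodes the corticosteroid-binding globulin, fell from 121 to 146 FPKM at low dose to 23.6, 1.76 and 2.82 FPKM at 40 Gy, below both controls (37.1 and 27.4 FPKM) in all 3 libraries. Its log2 difference was -4.42 (SE 0.55, adjusted p = 0.000667 in limma, 0.00821 with the pairs averaged, 1.07e-07 to 0.0402 over all settings). HRG, the histidine-rich glycoprotein that binds heparin and metals, read 3073 to 4268 FPKM at low dose, 893, 155 and 110.3 FPKM at 40 Gy and 1566 and 402 FPKM in the controls (log2 difference -3.81, SE 0.54, adjusted p = 0.00136, 0.0126 with the pairs averaged, 5.3e-07 to 0.0627 over all settings). IGFALS, which holds insulin-like growth factor in its plasma complex, read 54.2 to 82.1 FPKM and 20.8, 1.27 and 1.82 FPKM (log2 difference -3.68, SE 0.59, adjusted p = 0.00266, 0.0194 with the pairs averaged, 4.34e-07 to 0.0801 over all settings). In each of the 3 genes 40Gy-1 was the highest library at 40 Gy and still below all 6 at low dose. RBP4, the carrier of retinol, read 2017 to 2478 FPKM at low dose and 2091, 2303 and 2444 FPKM at 40 Gy and did not pass the test (adjusted p = 0.89, 0.591 to 0.998 over all settings).

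Of 22 tested coagulation and fibrinolysis genes 5 fell and 1 rose (22.7% and 4.55%, beside 10.3% and 12.2% of all genes). With the pairs averaged 3 fell and 1 rose, and without 40Gy-2 or 40Gy-3, 2 or 3 fell. At an unadjusted p under 0.05 in limma 9 were higher and 5 lower, and without 40Gy-1, 6 rose and 7 fell. F12, the factor that starts contact activation, fell from 924 ± 113 (SD, n = 4) FPKM to 517, 322 and 306 FPKM, below both controls (657 and 659 FPKM). KNG1, its partner kininogen, fell from 556 ± 28.5 (SD, n = 4) FPKM to 325, 245 and 223 FPKM, also below both controls (751 and 454 FPKM). These were log2 differences of -1.29 (SE 0.20, adjusted p = 0.00253 in limma, 0.0204 with the pairs averaged, 9.16e-05 to 0.103 over all settings) and -1.10 (SE 0.16, adjusted p = 0.00157, 0.0197 with the pairs averaged, 6.09e-05 to 0.0993 over all settings). The gene that rose was F13B, a subunit of the factor that crosslinks fibrin, from 22.9 ± 3.71 (SD, n = 4) FPKM to 48.9 ± 3.37 (SD, n = 3) (adjusted p = 0.00169, 0.0134 with the pairs averaged, 0.00074 to 0.0705 over all settings). Of 21 complement genes 6 rose and 3 fell (28.6% and 14.3%, beside 12.2% and 10.3% of all genes). With the pairs averaged, however, only C3, the central component of the cascade, was still called. Without 40Gy-2 or 40Gy-3 the counts were 1 and none. Without a single low-dose library 3 to 5 rose and 1 or 2 fell. C3 read 1138 to 1654 FPKM at low dose and 2124, 5104 and 4499 FPKM at 40 Gy (adjusted p = 0.00698, 0.0369 with the pairs averaged, 7.79e-05 to 0.152 over all settings).

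Bile acid genes moved both ways. Of 19 tested members 5 rose and 8 fell (26.3% and 42.1%, beside 12.2% and 10.3% of all genes). The counts were 4 and 4 with the pairs averaged and without 40Gy-2 or 40Gy-3, and 5 and 5 without 20Gy-1, 20Gy-3 or 30Gy-3. CYP27A1, which opens the alternative pathway of bile acid synthesis, read 668 to 802 FPKM at low dose and 315, 273 and 299 FPKM at 40 Gy, all below the controls (732 and 397 FPKM). SLC10A1, the importer of bile acids from blood, fell from 110.0 ± 8.30 (SD, n = 4) FPKM to 49.1, 27.8 and 20.7 FPKM. KLB, the coreceptor through which FGF19 acts on hepatocytes, fell from 8.88 ± 2.11 (SD, n = 4) FPKM to 2.22, 0.698 and 0.610 FPKM. The groups did not overlap in any of the 3 genes, and the log2 differences were -1.34 (SE 0.14, adjusted p = 0.000322 in limma, 0.00696 with the pairs averaged), -1.78 (SE 0.23, adjusted p = 0.000788, 0.00922 with the pairs averaged, 1.21e-05 to 0.052 over all settings) and -2.25 (SE 0.25, adjusted p = 0.000388, 0.00476 with the pairs averaged). ABCG5, a subunit of the sterol exporter into bile, rose from 7.73 ± 0.660 (SD, n = 4) FPKM to 16.3, 34.4 and 30.4 FPKM (log2 difference 1.63, SE 0.21, adjusted p = 0.000769, 0.00978 with the pairs averaged).

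Of 14 tested cytochrome P450 genes 5 fell and 1 rose (35.7% and 7.14%, beside 10.3% and 12.2% of all genes). The counts were 2 and 1 with the pairs averaged, and 2 and 1 without 40Gy-2. Without 40Gy-1, 5 fell and 4 rose, and without 20Gy-1, 20Gy-3, 30Gy-3 or 40Gy-3, 3 fell and 1 rose. With all 9 libraries the 1 that rose was CYP26A1, which breaks down retinoic acid and is induced by it: it read 4.12 to 9.85 FPKM at low dose, 29.7, 65.1 and 73.9 FPKM at 40 Gy and 2.39 and 1.72 FPKM in the controls (log2 difference 2.75, SE 0.33, adjusted p = 0.00057, 0.00552 with the pairs averaged). Of 21 genes of the urea cycle and amino acid breakdown 2 rose and 3 fell. These shares were 9.52% and 14.3%, beside 12.2% and 10.3% of all genes. The counts were 1 and 3 with the pairs averaged, and 11 and 4 without 40Gy-1. Without any other single library 1 rose and 3 fell, with quantile normalization 5 and 3, and scaled to a common total 4 and 3. OTC, the urea cycle enzyme that makes citrulline, fell from 247 ± 28.8 (SD, n = 4) FPKM to 125 ± 5.47 (SD, n = 3), below both controls (304 and 215 FPKM) in all 3 libraries (log2 difference -1.0, SE 0.15, adjusted p = 0.00157, 0.0197 with the pairs averaged, 0.000744 to 0.0978 over all settings). GLS2, the liver glutaminase, read 12.1 to 29 FPKM at low dose and 40.6, 193 and 203 FPKM at 40 Gy, where 40Gy-1 was much the lowest (log2 difference 2.52, SE 0.51, adjusted p = 0.00761, 0.0346 with the pairs averaged, 0.000159 to 0.141 over all settings). GPT2, the mitochondrial alanine aminotransferase, repeated that order with 8.79 to 21.9 FPKM at low dose and 40.3, 264 and 243 FPKM at 40 Gy (log2 difference 3.19, SE 0.58, adjusted p = 0.005, 0.0261 with the pairs averaged, 9.47e-05 to 0.114 over all settings). ASPG, a liver asparaginase, read 1.17 to 2.66 FPKM at low dose, 9.85, 28.8 and 28.7 FPKM at 40 Gy and 19.9 and 18.1 FPKM in the controls (log2 difference 2.85, SE 0.32, adjusted p = 0.000384, 0.00481 with the pairs averaged).

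Ferroptosis, named in the title of the series, depends on peroxidation of polyunsaturated lipids by iron and is held back by enzymes that reduce the peroxides. Of 13 tested driver genes 1 rose and 4 fell (7.69% and 30.8%, beside 12.2% and 10.3% of all genes). The counts were 1 and 1 with the pairs averaged and without 40Gy-2 or 40Gy-3. Without 40Gy-1, 4 rose and 5 fell. NCOA4, which delivers ferritin for breakdown, rose from 31.4 ± 5.48 (SD, n = 4) FPKM to 56.4, 63.6 and 63.1 FPKM, above both controls (45 and 37.2 FPKM) in all 3 libraries (log2 difference 0.91, SE 0.16, adjusted p = 0.00476 in limma, 0.0227 with the pairs averaged, 0.00264 to 0.106 over all settings). TFRC, the transferrin receptor, fell from 10.7 ± 3.41 (SD, n = 4) FPKM to 4.31 ± 0.241 (SD, n = 3) (log2 difference -1.14, SE 0.22, adjusted p = 0.0068, 0.0311 with the pairs averaged, 0.00347 to 0.127 over all settings). ACSL4, which loads polyunsaturated fatty acids onto phospholipids, read 27.7 to 49.7 FPKM at low dose, 28.6, 13.1 and 12.5 FPKM at 40 Gy and 3.26 and 2.37 FPKM in the controls. At 40 Gy it was thus lower than at low dose in 40Gy-2 and 40Gy-3, within the low-dose range in 40Gy-1, and above the controls in all 3. Its adjusted p of 0.0257 became 0.0784 with the pairs averaged, 0.125 without 40Gy-2 and 0.114 without 40Gy-3, in a range of 0.00186 to 0.259.

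Of 16 tested suppressors of ferroptosis 4 fell and none rose, with 3 higher and 6 lower at an unadjusted p under 0.05 in limma, and 2 fell with the pairs averaged, a count also found without 40Gy-2. Without 40Gy-1, 2 rose and 4 fell, without 30Gy-2 or 40Gy-2 1 rose, and scaled to a common total or with quantile normalization 1 rose and 5 fell. With the pairs averaged they were SCD, given above, and PRDX6, a peroxiredoxin that reduces phospholipid peroxides, which went from 171 ± 21.4 (SD, n = 4) FPKM to 88.4, 78.3 and 95.8 FPKM, below both controls (261 and 237 FPKM), with an adjusted p of 0.00206 (0.0226 with the pairs averaged, 0.00108 to 0.115 over all settings). Of 18 iron handling genes 3 rose and 3 fell (16.7% each way, beside 12.2% and 10.3% of all genes). With the pairs averaged none rose and 1 fell. Without 40Gy-1, 7 rose, without 40Gy-2 or 40Gy-3 none did, and without 20Gy-1, 20Gy-3, 30Gy-2 or 30Gy-3, 1 did. Of 17 targets of NRF2, the transcription factor of the oxidative stress response, 5 rose and 3 fell. These shares were 29.4% and 17.6%, beside 12.2% and 10.3% of all genes. With the pairs averaged 1 rose and 2 fell, and 1 rose without 40Gy-2 or 40Gy-3, 3 without 30Gy-2 and 6 without 40Gy-1. SRXN1, the sulfiredoxin that repairs oxidized peroxiredoxins, rose from 1.99 to 5.18 FPKM to 13.8, 27.9 and 29.2 FPKM, above both controls (1.40 and 2.46 FPKM) in all 3 libraries (log2 difference 2.46, SE 0.28, adjusted p = 0.000476, 0.00476 with the pairs averaged). NQO1, a quinone reductase and classic NRF2 target, read 3.28 to 5.70 FPKM at low dose and 9.92 ± 3.10 (SD, n = 3) FPKM at 40 Gy, with an adjusted p of 0.0134 that became 0.0516 with the pairs averaged, 0.0763 without 40Gy-2 and 0.0624 without 40Gy-3, in a range of 0.000878 to 0.196.

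Of 17 tested p53 targets 3 rose and 3 fell (17.6% each way, beside 12.2% and 10.3% of all genes). With the pairs averaged, and without 40Gy-2, none rose and 1 fell. Without 40Gy-1 the counts were 1 and 2, without 40Gy-3 1 and 1, and without 30Gy-2 1 and 3. DDB2, a DNA damage recognition factor, fell from 6.53 ± 0.541 (SD, n = 4) FPKM to 2.82, 1.86 and 1.06 FPKM, below both controls (4.69 and 3.09 FPKM) in all 3 libraries (log2 difference -1.39, SE 0.18, adjusted p = 0.000748, 0.00866 with the pairs averaged). Of 18 genes of the unfolded protein and integrated stress response 3 rose and 4 fell. These shares were 16.7% and 22.2%, beside 12.2% and 10.3% of all genes. The counts were 2 and 2 with the pairs averaged and without 40Gy-2 or 40Gy-3. At an unadjusted p under 0.05 in limma 10 were higher and 4 lower, and the median log2 difference was 0.76. Without 30Gy-2, 5 rose and 4 fell, and with quantile normalization 7 rose and 3 fell. DDIT3, which encodes the stress factor CHOP, rose from 7.09 ± 3.36 (SD, n = 4) FPKM to 24.2 ± 5.25 (SD, n = 3) (adjusted p = 0.00763, 0.0213 with the pairs averaged, 0.0048 to 0.0884 over all settings). PHGDH, the first enzyme of serine synthesis and a target of ATF4, fell from 61.9 ± 5.55 (SD, n = 4) FPKM to 29.5, 8.58 and 7.08 FPKM, below both controls (36.2 and 82.4 FPKM; adjusted p = 0.00264, 0.0196 with the pairs averaged, 1.45e-06 to 0.0954 over all settings). CHAC1, a glutathione-degrading target of the same factor, fell as well, from 3.01 to 13.9 FPKM to 0.116, 1.38 and 1.33 FPKM (adjusted p = 0.0135, 0.0355 with the pairs averaged, 0.00906 to 0.101 over all settings), so members of the list went both ways.

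Of 19 tested sinusoidal and vascular endothelial markers 1 rose and 1 fell (5.26% each way, beside 12.2% and 10.3% of all genes). None was called with the pairs averaged. At an unadjusted p under 0.05 in limma 5 were higher and 1 lower, and without 40Gy-1, 3 rose and 1 fell. None rose without any other single library. KDR, the receptor for vascular endothelial growth factor, went from 5.81 ± 0.680 (SD, n = 4) FPKM to 6.55, 10.4 and 9.0 FPKM, with 40Gy-1 inside the low-dose range. Its adjusted p of 0.0418 became 0.128 with the pairs averaged and rose past 0.05 without each single library except 40Gy-1, to between 0.0503 without 20Gy-1 and 0.192 without 40Gy-2. RSPO3, the Wnt amplifier of the central vein, went from 4.03 ± 0.792 (SD, n = 4) FPKM to 2.36 ± 0.409 (SD, n = 3) (adjusted p = 0.0207, 0.083 with the pairs averaged, 0.0956 without 40Gy-2, 0.00998 to 0.257 over all settings). Of 19 stellate cell and myofibroblast markers 3 fell (15.8%, beside 10.3% of all genes) and none rose. None was higher even at an unadjusted p under 0.05 in limma. The median log2 difference was -0.58, and 1 fell with the pairs averaged or without 40Gy-2. The gene called with the pairs averaged was CNN1, a contractile protein, which went from 4.35 ± 1.26 (SD, n = 4) FPKM to 1.94, 1.09 and 0.463 FPKM (adjusted p = 0.00984, 0.0294 with the pairs averaged, 0.00264 to 0.114 over all settings). Without 40Gy-1 the count of falls was 12, and the summed stellate markers were 283 to 412 FPKM at low dose and 569, 147 and 136 FPKM at 40 Gy, so that 40Gy-1 lay above and the other two below.

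Of 30 tested extracellular matrix genes 3 rose and none fell, with 1 lower at an unadjusted p under 0.05 in limma, and 1 rose without 40Gy-2 and 1 with the pairs averaged. With the pairs averaged it was COL14A1, a fibril-associated collagen, which went from 4.61 ± 0.553 (SD, n = 4) FPKM to 7.03, 12.7 and 13.7 FPKM (log2 difference 1.06, SE 0.20, adjusted p = 0.00529, 0.0294 with the pairs averaged, 0.000103 to 0.129 over all settings). Without 40Gy-1, 4 rose and 14 fell. FSTL3, a secreted antagonist of activin whose gene overlaps PRSS57, read 7.42 to 17.3 FPKM at low dose, 117, 154 and 114 FPKM at 40 Gy and 13.6 and 17.6 FPKM in the controls. TNFRSF12A, the receptor of the cytokine TWEAK that is induced in injured tissue, read 0.365 to 6.15 FPKM at low dose, 56.7, 23.2 and 25.6 FPKM at 40 Gy and 0.731 and 1.09 FPKM in the controls. All 3 libraries at 40 Gy lay above all others in both genes. The log2 differences were 3.31 (SE 0.27, adjusted p = 7.95e-05, 0.00122 with the pairs averaged) and 3.15 (SE 0.57, adjusted p = 0.00478, 0.0194 with the pairs averaged, 0.00443 to 0.0635 over all settings).

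Of the other genes among the 15 largest rises, CAMK2N1, an inhibitor of the kinase CaMKII, went from 9.24 ± 4.33 (SD, n = 4) FPKM to 57.1, 80.4 and 76.4 FPKM (log2 difference 2.90, SE 0.35, adjusted p = 0.00057 in limma, 0.00328 with the pairs averaged). RAB27B, a GTPase of vesicle secretion, read 0.0251 to 0.271 FPKM at low dose and 1.11, 18 and 17.4 FPKM at 40 Gy, so that 40Gy-1 stood just above the low-dose range and the other two far above it (log2 difference 2.97, SE 0.58, adjusted p = 0.00705, 0.0385 with the pairs averaged, 1.07e-07 to 0.152 over all settings). RAB27B too passed the filter only through the libraries at 40 Gy and could not fall.

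Of the other genes among the 15 largest falls, CBR2 (chromosome 12, 973780 to 976017), a carbonyl reductase, had the largest difference of all, from 1362 to 4690.4 FPKM at low dose to 14.8, 53.9 and 33.1 FPKM at 40 Gy, below both controls (582 and 99.9 FPKM) in all 3 libraries. Its log2 difference was -6.30 (SE 0.46, adjusted p = 4.23e-05 in limma, 0.00108 with the pairs averaged, 2.41e-05 to 0.00638 over all settings). EXTL1, a glycosyltransferase of heparan sulfate, read 75.4 to 142 FPKM at low dose, 7.36, 0.386 and 0.278 FPKM at 40 Gy and 6.94 and 14.8 FPKM in the controls. DVL2, a relay of Wnt signals whose gene overlaps ACADVL, read 71.4 to 129 FPKM at low dose, 9.94, 4.89 and 3.52 FPKM at 40 Gy and 10.5 and 11.5 FPKM in the controls. In EXTL1 and DVL2 the low-dose libraries stood above the controls as well as above the 40 Gy libraries. The log2 differences were -5.41 (SE 0.54, adjusted p = 0.000216, 0.00347 with the pairs averaged) and -3.81 (SE 0.28, adjusted p = 4.23e-05, 0.00117 with the pairs averaged).

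TECTB, a gene known from the tectorial membrane of the ear, read 16.4 to 20.9 FPKM at low dose and 2.17, 0 and 0.0781 FPKM at 40 Gy. ADTRP, a membrane hydrolase for hydroxy fatty acid esters, read 27.2 to 42.3 FPKM at low dose and 7.12, 0.210 and 0.0884 FPKM at 40 Gy. CA3, a carbonic anhydrase, read 33.1 to 47.2 FPKM at low dose and 15.4, 0.196 and 0.0980 FPKM at 40 Gy. In all 3 genes 40Gy-2 and 40Gy-3 were under 1 FPKM and 40Gy-1 stood between them and the low-dose libraries. The log2 differences were -3.67 for TECTB (SE 0.32, adjusted p = 9.42e-05 in limma, 0.00231 with the pairs averaged), -4.07 for ADTRP (SE 0.54, adjusted p = 0.000933, 0.011 with the pairs averaged, 4.11e-07 to 0.053 over all settings) and -3.88 for CA3 (SE 0.71, adjusted p = 0.00525, 0.0321 with the pairs averaged, 1.07e-07 to 0.132 over all settings).

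**Figure D5:**
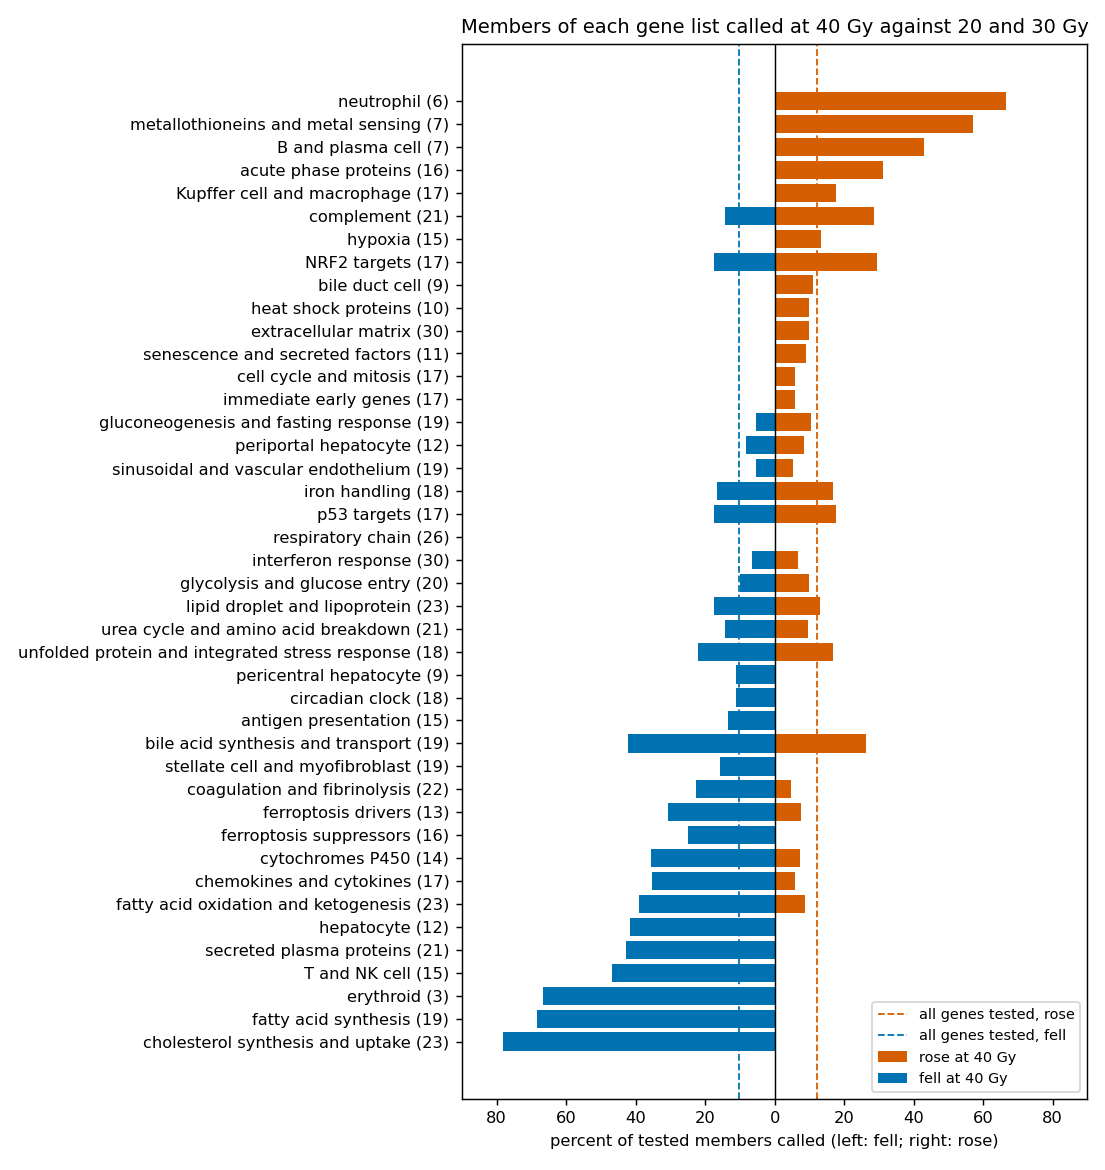
Percent of the tested members of each of the 42 gene lists that rose (right) or fell (left) at 40 Gy, with the number tested in parentheses. Dashed lines mark the 12.2% and 10.3% of all genes, and cholesterol synthesis (78.3%) and fatty acid synthesis (68.4%) reach furthest to the left.

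In the lists that follow, except the erythroid one, the shares called with all 9 libraries were near or below those of all genes. Of 26 tested respiratory chain genes none was called in limma, with 3 higher and 1 lower at an unadjusted p under 0.05, and 4 rose without 40Gy-1. Of 17 cell cycle genes 1 rose and none fell, with 1 lower at an unadjusted p under 0.05, none was called with the pairs averaged, and 2 rose and 7 fell without 40Gy-1. Of 17 immediate early genes 1 rose and none fell, none even at an unadjusted p under 0.05, and of 9 bile duct markers 1 rose and none fell, with 1 lower at an unadjusted p under 0.05. Neither list had a call with the pairs averaged. Of the immediate early genes 2 rose without 40Gy-1, 20Gy-1, 20Gy-3 or 30Gy-3 and none without 40Gy-2, and no bile duct marker was called without 20Gy-1, 20Gy-3, 30Gy-3 or any of the libraries at 40 Gy. The pericentral and periportal hepatocyte markers had 1 fall among 9, and 1 rise and 1 fall among 12. Without 40Gy-1, 3 pericentral markers rose and 2 fell, and 6 periportal markers rose and 1 fell. Quantile normalization and scaling to a common total each gave 3 rises of periportal markers. The sums of both lists differed between the 2 sets of low-dose libraries: the pericentral markers gave 741, 735 and 747 FPKM in 20Gy-1, 20Gy-3 and 30Gy-3, and 1973, 1921 and 1919 FPKM in 20Gy-2, 30Gy-1 and 30Gy-2. At 40 Gy they gave 1879, 3036 and 2877 FPKM. Of 3 tested erythroid genes 2 fell (66.7%, beside 10.3% of all genes), 1 with the pairs averaged and none without 40Gy-2. HBB, the beta chain of haemoglobin, read 57.4 to 334 FPKM at low dose and 53.7, 11.7 and 15 FPKM at 40 Gy, and its adjusted p of 0.0156 became 0.0513 with the pairs averaged, 0.0856 without 40Gy-2 and 0.0684 without 40Gy-3, in a range of 0.00397 to 0.193.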

How the data were processed

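Per the labels, total RNA of pig liver was extracted with Trizol, made into TruSeq libraries and sequenced in pairs on a HiSeq instrument. The deposited table holds FPKM values that the authors made, per the file headers. The submitters' processing notes list HISAT2, Cufflinks and HTSeq and the builds Sscrofa11.1 and mm10, with no role for any, and annotation, strand setting and gene filter are not stated. No steps of whole reads could be recovered, so depth and counting error are unknown.

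Genes with at least 1 FPKM in 2 of the 9 irradiated libraries (11526 of 12505) were fitted as log2(FPKM + 1) with limma 3.58.1 in R 4.3.3, 40 Gy against the other 6 libraries, with an intensity trend and Benjamini-Hochberg adjustment. Dixon's ratio was the check for single libraries that stand apart. Means ± SD count each near-identical pair once. The 28 alternatives covered the pairs, pseudocounts of 0.1 and 0.5, the filter, scaling, the model and each library left out. The fitting was tested on simulated data with libraries drawn independently. These held no near-identical pairs, no sets within low dose and no library like 40Gy-1, so the effect of those was not simulated. Named genes are the 15 largest rises and 15 largest falls with a symbol, an adjusted p under 0.05, 5 FPKM or more in the higher group and no overlap, and up to 4 members of a list, with the smallest p or defining its role. The comparison and the 42 lists were chosen with earlier results of these data known. Symbols and coordinates come from the file and the RefSeq table of Sscrofa11.1. Values of some list members are not reported here.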

Additional observations from a re-analysis of the deposited data

Results flagged for a closer look

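GLOD5 had 1 low-dose library far from the others. It read 0.140 FPKM in 20Gy-1 and between 1.0 and 1.55 FPKM in the other 5 libraries given 20 or 30 Gy. The gap of 20Gy-1 to its nearest neighbour was 0.699 of the whole range, above Dixon's critical value at 95% for 6 libraries. The 30 named genes were tested in this way, and with independent libraries chance alone gives about 1 such library in 20 tests. All 6 libraries stayed far below the 45.6, 182 and 221 FPKM at 40 Gy.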

How the results depend on the processing

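As reported, 2595 genes were called, 1406 of which rose and 1189 of which fell. Averaging both near-identical pairs gave 1116 (512 and 604), and averaging the 30 Gy pair while leaving out 20Gy-3 and 30Gy-3 gave 365 (126 and 239). Scaling to a common total gave 1619 (869 and 750). Against 20 Gy alone the count was 557 (215 and 342), and against 30 Gy alone 535 (203 and 332). Leaving out 1 library gave 1002 to 4767 calls, 459 to 2589 rises and 543 to 2178 falls, the lowest without 40Gy-2 and the highest without 40Gy-1. Without 20Gy-3 or 30Gy-3, 910 or 916 genes rose. With the pairs averaged as well, leaving out 40Gy-1 gave 3915 (2072 and 1843), leaving out 40Gy-2 gave 281 (105 and 176) and leaving out 40Gy-3 gave 314 (129 and 185). The cause was not tested for any of these changes. In the other alternatives the total stayed within 1.5 times the reported count.

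Of 139 single genes followed, none changed direction, and 136 had a value under the filter on 3 libraries. With the pairs averaged 94 were still called as reported and 45 were not, without 40Gy-2 92 and 47, and without 40Gy-3 110 and 29. Of 59 list counts, 40 moved by more than 1.5 times with the pairs averaged, 34 with a common total, 24 without 40Gy-1, 40 without 40Gy-2 and 28 without 40Gy-3. A shift to a common median turned 54.2% of calls as rises into 39.4%. With the replicate number as a block 2760 genes were called. The numbers did not pair the libraries: over 9 same-numbered pairs the correlation of the deviations from group means ran from -0.625 to 0.655.

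With 3 libraries at 40 Gy, 1 of which stands apart, and 4 distinct samples at low dose, small differences cannot be seen, and low values are limited by a depth that is not known.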

Other observations

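Of 18 tested genes of the circadian clock, 2 fell and none rose in limma, with 4 higher and 4 lower at an unadjusted p under 0.05, and 1 fell with the pairs averaged. Without 40Gy-1, 2 rose and 3 fell, and without 20Gy-1, 20Gy-3 or 30Gy-3, 1 fell. The gene that fell with the pairs averaged was PER2, a repressor of the clock, which read 12.6 to 19.6 FPKM at low dose (median 16.5), 1.16, 1.40 and 0.962 FPKM at 40 Gy and 7.32 and 2.91 FPKM in the controls. All 3 libraries at 40 Gy lay below every other library, with a log2 difference of -2.97 (SE 0.17, adjusted p = 1.59e-05, 0.000499 with the pairs averaged, 1e-05 to 0.00447 over all settings). The labels used here give a day and no hour of sampling.

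Of 20 tested genes of glycolysis and glucose entry, 2 rose and 2 fell, none and 1 with the pairs averaged, and without 40Gy-2 none rose. Without 40Gy-1, 4 rose and 5 fell, without 20Gy-1, 20Gy-3 or 30Gy-3, 1 rose, and without 40Gy-2 or 40Gy-3, 1 fell. PKLR, the liver pyruvate kinase and a target of ChREBP, fell from 43.3 ± 9.64 (SD, n = 4) FPKM to 13.4, 5.75 and 3.73 FPKM, below both controls (23.4 and 14.5 FPKM) in all 3 libraries (log2 difference -2.48, SE 0.32, adjusted p = 0.000733, 0.00766 with the pairs averaged, 2.72e-05 to 0.0441 over all settings). Of 10 tested heat shock protein genes 1 rose and none fell, none even at an unadjusted p under 0.05 in limma, and without 40Gy-1, 2 rose and 1 fell. With all 9 libraries it was HSP90AB1, a cytosolic chaperone, which went from 108 ± 8.53 (SD, n = 4) FPKM to 171, 215 and 204 FPKM, against 164 and 193 FPKM in the controls (adjusted p = 0.00341, 0.0279 with the pairs averaged, 0.000491 to 0.131 over all settings). Of 19 genes of gluconeogenesis and the fasting response 2 rose and 1 fell. These shares were 10.5% and 5.26%, beside 12.2% and 10.3% of all genes. With the pairs averaged, and without 40Gy-2 or 40Gy-3, 1 rose and none fell. Without 40Gy-1, 6 rose and 2 fell. Of 15 hypoxia genes 2 rose (13.3%), and of 11 genes of senescence and its secreted factors 1 rose (9.09%), beside 12.2% of all genes. None of either list was called with the pairs averaged, and none fell as reported, none even at an unadjusted p under 0.05. Without 40Gy-1, 5 hypoxia genes rose and 2 fell, and 1 senescence gene rose and 3 fell. No senescence gene rose without 20Gy-3 or 30Gy-3, and without 20Gy-3 or 40Gy-2, 1 hypoxia gene rose.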
